A study of Rattus norvegicus with 8 samples.

Results

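The heat shock proteins and their J-domain co-chaperones were examined in rat retina after transcorneal electrical stimulation, or TES, in which an electrode on the cornea sends a weak current into the eye. A gene was taken as a member when the array annotation gave a probe set exactly 1 symbol that opens with Hspa, Hspb, Hspd, Hspe, Hsph, Hsp90a, Hsp90b, Dnaja, Dnajb or Dnajc followed directly by a digit. This gave 61 of the 16633 genes measured. They comprise 11 Hspa genes, 8 Hspb genes, Hspd1, Hspe1, Hsph1, 4 Dnaja genes, 11 Dnajb genes and 24 Dnajc genes, and they rest on 535 probe sets with a median of 6 per gene. No HSP90 gene met the wording of the rule, because Hsp90aa1 and Hsp90ab1 carry a letter before the digit and Hsp90b1 stands on the array under its old symbol Tra1. Those 3 genes are given below as genes outside the rule.

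Retinas came from male Brown Norway rats aged 8 weeks, 4 h after TES or after a sham procedure, which the sample titles call the TES control. Each of 4 TES and 4 sham samples went onto its own Affymetrix Rat Gene 1.0 ST array, which reads a gene through several probe sets spread over its exons. No genetic change is named for either group. The labels do not say which animal an array came from, so the p-values rest on the spread among these arrays, and part of it may be technical. Values are log2 signals after GC-RMA, a background correction that uses the base composition of each probe. Each gene is the mean of its probe sets, means are given with their SD (n = 4), and a difference is always TES less sham in log2 units. The 1100 olfactory receptor genes on the array serve as a guide to low signal, and their 95th percentile lay at 3.10. The 8 measured rod photoreceptor genes all lay above it with a summed linear signal of 14076 to 16144 after TES and 14107 to 15589 after sham, although 1 of them, Rom1, differed by -0.38 (limma unadjusted p 0.0389, adjusted p 0.877). Of 10 pigment epithelium genes 4 were higher and 6 lower after TES, with a summed signal of 829 to 1040 against 922 to 988, and 2 of the 10 lay at or below the olfactory receptor percentile. Rpe65 and Rdh5 of that list each differed by -0.50 (limma unadjusted p 0.0190 and 0.0198, adjusted p 0.843). All 5 measured erythrocyte genes had higher means after TES, 4 of them at or below that percentile, with a summed signal of 69 to 94 against 49 to 102. The part of such tissue differences in the chaperone values was not tested. Fewer cells of a type and less RNA per cell cannot be told apart in whole retina.

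Chaperones bind proteins that are not yet folded or have lost their fold. HSP70 proteins do so in cycles of ATP hydrolysis that J-domain proteins start and nucleotide exchange factors reset, HSP90 takes over many of their clients, and small heat shock proteins hold unfolded chains without using ATP. Under heat or other protein stress, the factor HSF1 binds heat shock elements in front of many of these genes, while the chaperones of the endoplasmic reticulum answer to the unfolded protein response. In retina, rods fold large amounts of membrane protein in the endoplasmic reticulum, and synapses use HSP70 and J proteins to recycle vesicles.

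The question of the comparison was whether stimulation changed the levels of these genes within hours. In limma no member reached an adjusted p of 0.05, and neither did any other gene (0.0% of 16633). SAM, the method of the series text, and the unmoderated fit called none either. The smallest limma adjusted p among members was 0.843. At an unadjusted p under 0.05 SAM gave 3 of the 61 members, Dnajc17, Dnajc9 and Hspb9, against 5.59% of all genes. The unmoderated fit gave 3, Dnajc17, Hspb9 and Dnajb9, against 5.45% of all genes. At that level limma gave 4 members, Dnajc17, Dnajc9, Hspb1 and Hspb9, which is 6.56% of the members against 5.57% of all genes. All 4 had lower means after TES, which 3.22% of all genes did at that level, and no member was higher, against 2.35% of all genes. The series text also asks for 1.2 fold or more, and with that limma left 1 of the 61 members, Dnajc9, against 3.59% of all genes. The TES and sham arrays overlapped in all 61 members, whereas 3.31% of all genes had groups that did not overlap, 1.98% with TES lower.

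Which members reached an unadjusted p under 0.05, and in which direction, changed with single arrays. Leaving out 1 array gave 1 to 3 members, while the share of all genes stayed between 5.21% and 5.89%. Only Hspb1 was left without sham 4, and Dnajc17 and Dnajc9 without TES 2. Members with higher means after TES joined in 5 of these 8 settings, namely Hspa13 without TES 4 or without sham 1, Hspb8 without TES 1, Dnajc24 without TES 3 and Dnajc22 without sham 3. With each array centred on its median Dnajc17 alone was left (5.65% of all genes). With the median probe set or the probe set of highest mean standing for the gene the count was 0 (5.37% and 5.16% of all genes).

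Members were split, with 31 higher and 30 lower after TES and a median difference of 0.001, beside -0.013 over all genes. This split depended on the scaling, with 40 higher and 21 lower when arrays were centred on their medians (9664 of all genes higher and 6969 lower, against 7494 and 9139 in the original values) and 36 higher and 25 lower after quantile normalization. Single probe sets gave the same balance, with 269 of 535 higher. The 95% interval of the difference lay within 1.5 fold in either direction for 57 of the 61 members (93.4%, against 94.4% of all genes) and within 1.2 fold for 22 (36.1%, against 25.9%). The 4 members whose intervals reached beyond 1.5 fold were Hspa13, Hspa2, Hspb8 and Dnajc22.

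**Figure D1:**
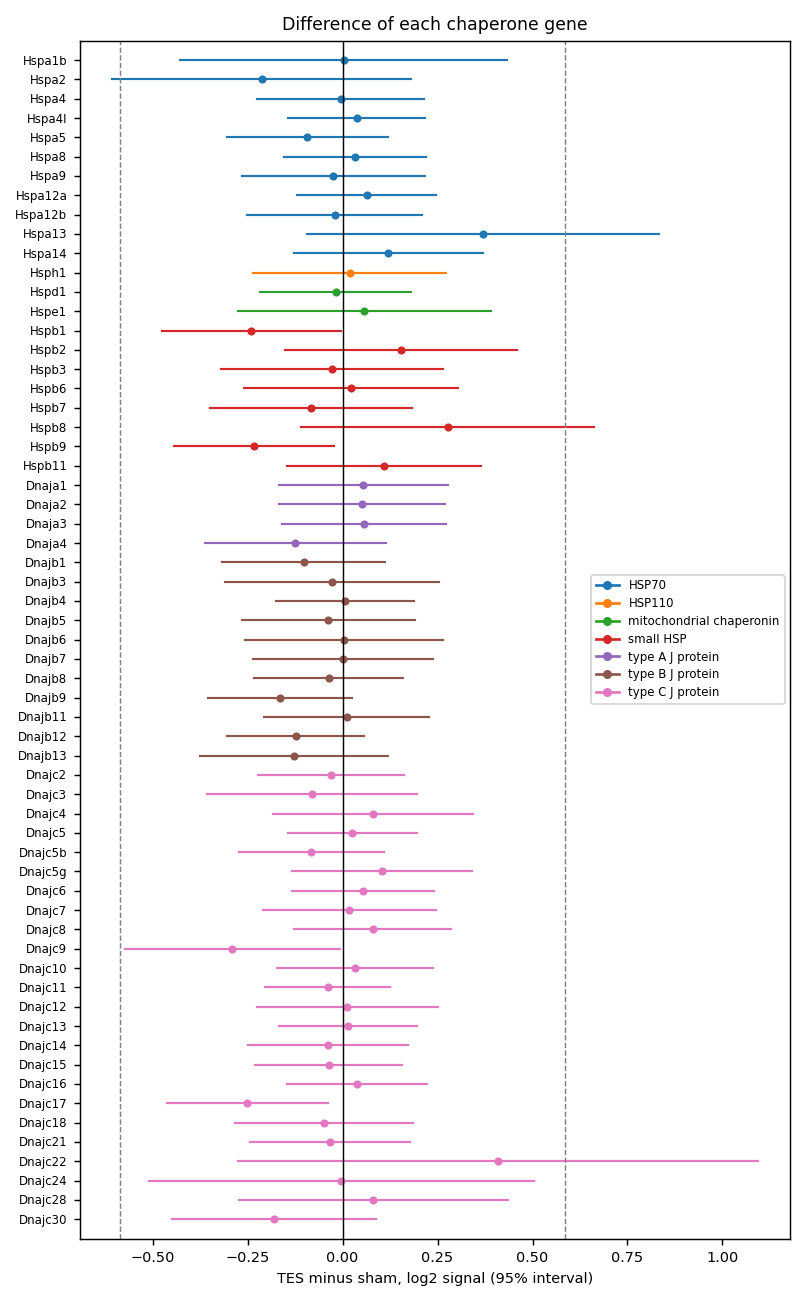
TES minus sham in log2 signal (x axis) for each of the 61 members (y axis), with dots for the difference, bars for the 95% limma interval, colours for the families and dashed lines at 1.5 fold. All intervals but 4 stay between the dashed lines, and the 4 that exclude 0 belong to Hspb1, Hspb9, Dnajc9 and Dnajc17.

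Heat shock elements are the DNA through which HSF1 acts, so the 250 bases before each gene's start were searched for them in RefSeq sequence of the assembly GRCr8. Of the 61 members, 47 had a promoter in that table. The other 14, Hspa1b among them, were not searched. The letters GAANNTTC, which read alike on both strands and hold 2 inverted units of the element, occurred in 13 of the 47 (27.7%), against 7.23% of all 33469 promoters. An additional unit on either side, written as the same letters followed by NNGAA or, on the other strand, preceded by TTCNN, occurred in 4 (8.51% against 0.663%), namely Hspa8, Hsph1, Hspd1 and Hspe1. The endoplasmic reticulum stress response element, searched on both strands by its CCAAT and CCACG ends at their fixed spacing, occurred in Hspa5 and Dnajc3 (4.26% against 0.0657%). The Dnajb9 promoter was searched too and held 0 matches to it. Promoters of inducible or abundant members follow because they carry the response elements the question turns on, with matches in capitals. The first 3 hold at least 3 units, with 2 overlapping matches in Hspd1. Hspb1 and Dnajb1 hold 2 units per match within the 250 bases, and Hspa5 holds the stress response element.
Hspa8, chr8:50080264-50080513, plus strand: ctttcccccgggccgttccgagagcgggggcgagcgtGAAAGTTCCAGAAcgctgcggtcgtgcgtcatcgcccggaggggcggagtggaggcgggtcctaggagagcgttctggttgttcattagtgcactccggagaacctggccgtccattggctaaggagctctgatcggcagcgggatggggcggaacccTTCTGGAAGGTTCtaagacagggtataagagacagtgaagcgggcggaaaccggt
Hsph1, chr12:10427118-10427367, plus strand: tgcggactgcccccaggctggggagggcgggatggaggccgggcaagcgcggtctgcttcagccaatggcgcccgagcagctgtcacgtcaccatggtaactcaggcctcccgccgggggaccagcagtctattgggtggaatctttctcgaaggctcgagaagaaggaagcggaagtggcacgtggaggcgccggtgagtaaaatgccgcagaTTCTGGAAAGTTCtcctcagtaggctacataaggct
Hspd1, chr9:64084038-64084287, minus strand: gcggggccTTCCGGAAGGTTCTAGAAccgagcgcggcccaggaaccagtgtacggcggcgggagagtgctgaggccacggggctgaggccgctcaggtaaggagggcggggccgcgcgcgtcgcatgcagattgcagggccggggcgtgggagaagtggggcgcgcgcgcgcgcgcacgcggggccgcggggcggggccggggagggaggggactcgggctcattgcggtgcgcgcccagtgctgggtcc
Hspb1, chr12:26432302-26432551, minus strand: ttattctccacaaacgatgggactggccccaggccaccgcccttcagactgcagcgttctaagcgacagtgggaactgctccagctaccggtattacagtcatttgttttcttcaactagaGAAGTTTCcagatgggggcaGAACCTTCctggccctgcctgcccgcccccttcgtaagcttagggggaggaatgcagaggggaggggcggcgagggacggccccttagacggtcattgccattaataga
Dnajb1, chr19:41431142-41431391, minus strand: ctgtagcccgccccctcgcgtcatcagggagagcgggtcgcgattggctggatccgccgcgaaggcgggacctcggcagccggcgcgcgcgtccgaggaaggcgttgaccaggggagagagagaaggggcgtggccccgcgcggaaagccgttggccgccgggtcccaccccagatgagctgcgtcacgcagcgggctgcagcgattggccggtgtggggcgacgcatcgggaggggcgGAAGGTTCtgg
Hspa5, chr3:38452766-38453015, plus strand: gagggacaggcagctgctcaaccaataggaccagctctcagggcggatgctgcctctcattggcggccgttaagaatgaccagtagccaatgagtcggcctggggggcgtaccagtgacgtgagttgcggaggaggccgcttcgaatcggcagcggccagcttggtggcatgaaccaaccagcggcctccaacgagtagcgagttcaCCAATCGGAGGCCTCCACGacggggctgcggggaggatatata

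The matches in Hspd1 are also those of Hspe1, since the 2 genes start 290 bases apart on opposite strands. In Hspb1 the 2 matches lie 129 to 122 and 109 to 102 bases before the start. In Dnajb1 the match lies 11 to 4 bases before it, and in Hspa5 43 to 25 bases before it. A further unit downstream of the Dnajb1 match would run past the bases searched. A match describes these letters only and shows no binding. The 13 members with the shorter letters had a median difference of 0.02, with 8 higher and 5 lower after TES. The 4 members with at least 3 units ranged from -0.02 to 0.06, and Hspa5 and Dnajc3 stood at -0.09 and -0.08. The median of all genes was -0.013.

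Among the Hspa genes, 6 of 11 were higher and 5 lower after TES (9 and 2 with median-centred arrays, 7 and 4 after quantile normalization), with a median of 0.003 and no unadjusted p under 0.05. Hspa8, the constitutive cytosolic HSP70 that also strips clathrin from vesicles, was at 10.79, 10.71, 10.75 and 10.54 on TES 1 to TES 4 and at 10.69, 10.59, 10.64 and 10.73 on sham 1 to sham 4. TES 4 was the lowest array and TES 1 the highest, so the TES arrays enclosed the sham arrays. The means were 10.70 ± 0.11 and 10.66 ± 0.06 (SD, n = 4 arrays each), a difference of 0.03 (95% interval -0.15 to 0.22, limma adjusted p 0.994). RefSeq lists 33 Hspa8 pseudogenes, and how much of their sequence the probes share was not tested.

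Hspa1b, the heat-inducible HSP70, was at 4.63, 4.15, 4.09 and 4.84 after TES and at 4.37, 3.99, 4.54 and 4.80 after sham. Both groups held arrays near 4 and near 4.8, and the means of 4.43 ± 0.37 and 4.42 ± 0.34 differed by 0.003 (95% interval -0.43 to 0.43, limma adjusted p 0.999). The gene rests on 2 probe sets. Its near-identical copy Hspa1a has no probe set of its own, and a further probe set annotated to Hspa1b, Hspa1a and Hspa1l lay at 7.90 ± 0.08 after TES and 7.93 ± 0.17 after sham, so signal cannot be assigned to either copy with certainty. The probe set annotated to Hspa1b and Hspa1a alone lay at 4.90 ± 0.11 and 4.75 ± 0.17.

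Hspa5 (BiP), the HSP70 of the endoplasmic reticulum and a standard readout of the unfolded protein response, was at 9.08, 9.01, 9.12 and 8.78 after TES and at 9.06, 9.21, 9.10 and 9.00 after sham. TES 4 was the lowest array, while the other TES arrays lay within the sham range. The difference was -0.09 (95% interval -0.30 to 0.12, limma adjusted p 0.969), and 9 of its 10 probe sets had lower means after TES. Hspa9 (mortalin), which pulls proteins into mitochondria, was at 7.88, 7.62, 7.73 and 7.40 after TES and at 7.67, 7.69, 7.56 and 7.82 after sham. Here TES 1 was the highest and TES 4 the lowest of all arrays, and the difference of -0.02 had the opposite sign with median-centred arrays.

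Hspa13 (Stch), a short HSP70 of the microsomal fraction, had the most positive difference of the HSP70 genes. It was at 7.17, 6.78, 6.90 and 6.10 after TES and at 6.79, 6.30, 6.31 and 6.09 after sham. Of the TES arrays 3 lay at or near the top and TES 4 beside the lowest sham array. The means were 6.74 ± 0.45 and 6.37 ± 0.30, a difference of 0.37 (95% interval -0.09 to 0.83, limma adjusted p 0.920). Of its 5 probe sets, 1 ran from 2.16 on sham 4 to 6.51 on TES 1 and differed by 1.42, while the others differed by 0.01 to 0.22. Without that probe set, an alternative chosen after the values were seen, the difference of the gene was 0.11 (adjusted p 0.967). Without TES 4 it was 0.58 (limma unadjusted p 0.00478), without sham 1 it was 0.51 (limma unadjusted p 0.0330), and without TES 1 it was 0.23.

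**Figure D2:**
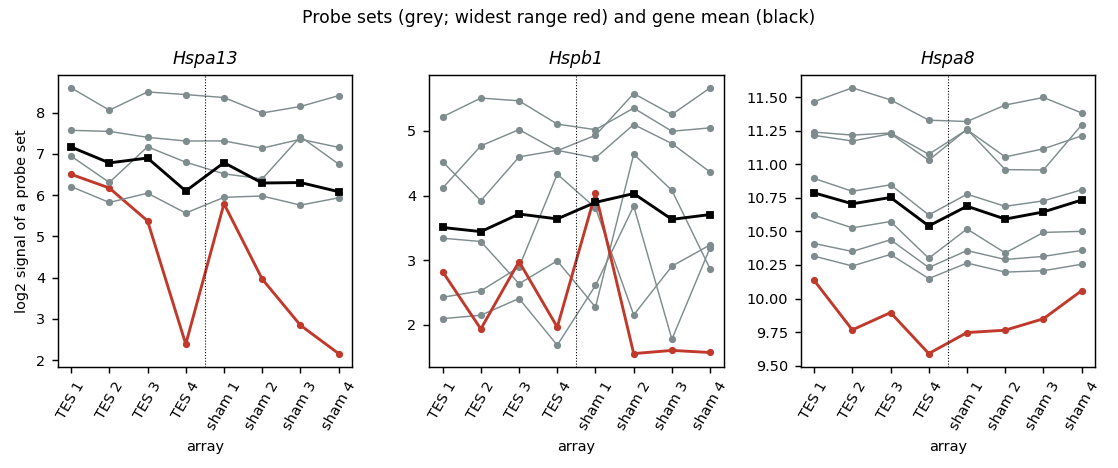
Log2 signal (y axis) of every probe set of Hspa13, Hspb1 and Hspa8 on the 8 arrays (x axis), joined by lines so that a probe set can be followed, with the probe set of widest range in red and the gene mean in black. In Hspa13 the red probe set runs from 2.16 to 6.51, whereas the widest of Hspa8 runs from 9.59 to 10.14.

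Hspa4 and Hsph1 belong to the HSP110 proteins, which exchange the nucleotide of HSP70. Hspa4 was at 8.41, 8.10, 8.26 and 8.06 after TES and at 8.19, 8.09, 8.23 and 8.34 after sham, giving a difference of -0.004 that turned positive with median-centred arrays (0.03) and after quantile normalization (0.02). Hsph1, the heat-inducible one, was at 6.00, 5.80, 5.98 and 5.51 after TES and at 5.92, 5.76, 5.70 and 5.84 after sham. TES 4 again was lowest and TES 1 highest, and the difference was 0.02 (95% interval -0.23 to 0.27).

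The HSP90 genes, which lie outside the rule, had no unadjusted p under 0.05 either. Hsp90aa1, the inducible cytosolic form, was at 9.46, 9.33, 9.42 and 9.01 after TES and at 9.21, 9.04, 9.23 and 9.36 after sham, giving a difference of 0.10 (95% interval -0.15 to 0.35, limma adjusted p 0.974). TES 1 to TES 3 lay at 9.33 or above, but TES 4 was the lowest array of all. The constitutive form Hsp90ab1 was at 9.36, 9.18, 9.28 and 9.02 after TES and at 9.38, 9.15, 9.25 and 9.22 after sham, and differed by -0.04 (95% interval -0.25 to 0.17). Tra1, the form of the endoplasmic reticulum, was at 8.46, 8.35, 8.47 and 8.21 after TES and at 8.45, 8.09, 8.34 and 8.32 after sham, and differed by 0.07 (95% interval -0.15 to 0.29). In both genes the groups overlapped almost fully. RefSeq lists 16 pseudogenes of Hsp90aa1 and 23 of Hsp90ab1.

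Hspd1 and Hspe1 encode the barrel and the lid of the mitochondrial chaperonin. Hspd1 was at 7.20, 7.43, 7.42 and 7.29 after TES and at 7.39, 7.20, 7.43 and 7.39 after sham, and Hspe1 at 6.08, 5.61, 5.73 and 5.57 against 5.93, 5.60, 5.33 and 5.90. Their groups covered nearly the same ranges, with differences of -0.02 (95% interval -0.22 to 0.18) and 0.06 (95% interval -0.27 to 0.39). The sign of Hspd1 was positive with median-centred arrays (0.02) and after quantile normalization (0.003).

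Of the 8 small heat shock genes 4 were higher and 4 lower after TES (5 and 3 with median-centred arrays), and Hspb7 and Hspb9 lay under the olfactory receptor percentile. Hspb1 (HSP27), which protects the cytoskeleton and is induced in stressed neurons and glia, was at 3.51, 3.44, 3.72 and 3.64 after TES and at 3.90, 4.03, 3.63 and 3.71 after sham. Sham 1 and sham 2 lay above every TES array, while sham 3 and sham 4 lay within the TES range. The means were 3.58 ± 0.12 and 3.82 ± 0.18, a difference of -0.24 (95% interval -0.48 to -0.005, limma unadjusted p 0.0463, adjusted p 0.883). Of its 7 probe sets 4 had lower and 3 higher means after TES, the brightest among the latter with 0.22. The probe set of largest difference (-0.77) lay at 2.09 after TES and 2.86 after sham, both under the olfactory receptor percentile. The next largest difference (-0.71) came from a probe set above that percentile, at 4.65 after TES and 5.36 after sham. Hspb1 is also a lens protein, and TES 3 and sham 2 carried the highest summed linear signal of 8 lens genes. That sum ran from 192 to 1557 after TES and from 114 to 752 after sham, with the maxima on those arrays. Of the 8 genes 7 were higher and 1 lower after TES, with a median difference of 0.47. Mip and Crygc, both higher after TES, had an unadjusted p under 0.05 (limma unadjusted p 0.00641 and 0.0126, adjusted p 0.820 and 0.823). Among the 8 genes 3 lay at or below the olfactory receptor percentile, Crygc being 1 of them. TES 3 and sham 2 were also the highest arrays of their group for Hspb1. Sham 1 had a lens sum of 204 but an Hspb1 signal of 3.90, above the 3.72 of TES 3. The part of lens RNA in the Hspb1 difference was not tested.

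Hspb8, which works with BAG3 to clear misfolded proteins, was at 3.08, 4.08, 3.61 and 3.41 after TES and at 3.26, 3.35, 3.39 and 3.08 after sham. TES 2 stood highest and TES 1 level with the lowest sham array, so that the TES arrays spread over 1.00 log2 units. The difference was 0.28 (95% interval -0.11 to 0.66, limma adjusted p 0.923), and without TES 2 it was 0.10. Hspb2, expressed mainly in muscle, was at 3.51, 3.80, 3.96 and 3.98 after TES and at 3.76, 3.86, 3.71 and 3.31 after sham, giving a difference of 0.15 (95% interval -0.15 to 0.46). Beside it, the summed linear signal of 13 muscle genes ran from 149 to 158 after TES and from 148 to 173 after sham, with 4 of them at or below the olfactory receptor percentile.

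Hspb9, a small heat shock gene of testis, was at 2.70, 2.43, 2.50 and 2.46 after TES and at 2.68, 2.62, 2.89 and 2.83 after sham. Its difference of -0.23 (95% interval -0.44 to -0.02, limma adjusted p 0.843) rests on 1 probe set, and its signal on every array lay under the olfactory receptor percentile. Of 8 germ cell genes 4 lay at or below that percentile, with a summed linear signal of 64 to 70 after TES and 64 to 77 after sham. Hspb3, Hspb6, Hspb7 and Hspb11, which encodes a ciliary transport protein rather than a chaperone, had intervals that included 0.

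**Figure D3:**
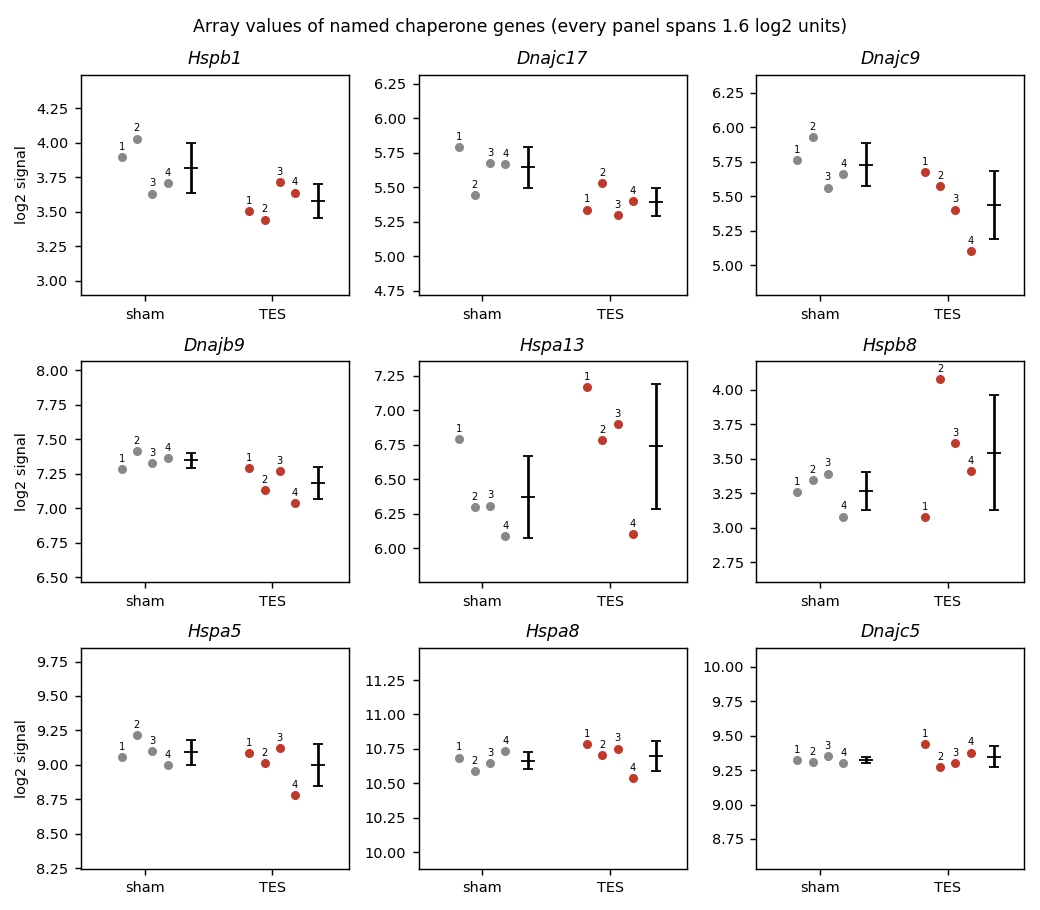
Log2 signal (y axis, 1.6 units in every panel) of 9 members by group, with 1 point per array numbered by replicate and a bar for mean ± SD over 4 arrays. Hspb1 and Dnajb9 lie lower after TES with overlapping groups, Hspa13 and Hspb8 spread widely within the TES group, and Dnajc5 hardly varies.

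Type A J proteins deliver unfolded chains to HSP70, and 3 of 4 were higher after TES, with a median of 0.05 and no unadjusted p under 0.05. Dnaja1, the main cytosolic one, was at 7.88, 7.77, 7.98 and 7.71 after TES and at 7.84, 7.66, 7.97 and 7.65 after sham. Each group held 2 high and 2 lower arrays. The difference of 0.05 (95% interval -0.17 to 0.28) was -0.05 with the median probe set per gene.

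Of the 11 type B genes 4 were higher and 7 lower (5 and 6 with median-centred arrays), with differences from -0.16 to 0.01. The lowest of them was Dnajb9 (ERdj4), a target of the unfolded protein response that helps to degrade misfolded proteins of the endoplasmic reticulum. It was at 7.29, 7.13, 7.27 and 7.04 after TES and at 7.29, 7.42, 7.33 and 7.36 after sham. The sham arrays lay close together, and TES 1 alone reached the level of sham 1, the lowest of them. The means were 7.18 ± 0.12 and 7.35 ± 0.06, a difference of -0.16 (95% interval -0.35 to 0.02, limma unadjusted p 0.0820, adjusted p 0.894). In the unmoderated fit its unadjusted p was 0.0455 and its adjusted p 0.907. All 3 probe sets had lower means after TES, and the difference kept its sign without any single array (-0.20 to -0.12).

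Dnajb1 (HSP40), the partner of inducible HSP70, was at 6.80, 6.99, 6.84 and 7.08 after TES and at 7.02, 7.16, 7.09 and 6.86 after sham. The groups overlapped over most of their ranges, and the difference was -0.10 (95% interval -0.32 to 0.11, limma adjusted p 0.963). Dnajb6, which suppresses protein aggregation, was at 6.52, 6.23, 6.38 and 6.37 after TES and at 6.57, 6.22, 6.56 and 6.13 after sham, and the difference was 0.00 (95% interval -0.26 to 0.26). Dnajb11 (ERdj3), a cofactor of BiP, was at 6.06, 6.25, 6.44 and 6.24 after TES and at 6.35, 6.24, 6.11 and 6.25 after sham, and the difference was 0.01 (95% interval -0.21 to 0.23). Sham arrays were spread widest in Dnajb6 and TES arrays in Dnajb11, with the groups centred alike.

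The 24 type C genes are a mixed class that shares only the J domain, and 12 were higher and 12 lower after TES (15 and 9 under either other scaling). Dnajc5 encodes cysteine string protein, which guards the release machinery of synaptic vesicles. It was at 9.44, 9.27, 9.30 and 9.38 after TES and at 9.32, 9.31, 9.35 and 9.30 after sham, a range of 0.17 over all arrays. The sham arrays lay closer together (SD 0.02) than the TES arrays (SD 0.08), and the difference was 0.03 (95% interval -0.14 to 0.20). Dnajc6 (auxilin), which recruits HSP70 to clathrin coats, was at 8.72, 8.47, 8.64 and 8.57 after TES and at 8.57, 8.44, 8.61 and 8.56 after sham, giving a difference of 0.05 (95% interval -0.13 to 0.24).

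Dnajc17, a nuclear J protein tied to splicing, had the smallest unadjusted p of the members. It was at 5.34, 5.53, 5.30 and 5.40 after TES and at 5.79, 5.44, 5.67 and 5.67 after sham. Only sham 2 lay inside the TES range, below TES 2. The means were 5.39 ± 0.10 and 5.64 ± 0.15, a difference of -0.25 (95% interval -0.46 to -0.04, limma unadjusted p 0.0243, adjusted p 0.843). Of its 12 probe sets 7 had lower and 5 higher means after TES, the widest difference being -1.39, and the brightest probe set differed by 0.03. Dnajc9, a nuclear J protein that also handles histones, was at 5.67, 5.57, 5.40 and 5.10 after TES and at 5.76, 5.93, 5.56 and 5.66 after sham. TES 3 and TES 4 lay below every sham array, and TES 1 and TES 2 within the sham range. The difference was -0.29 (95% interval -0.57 to -0.01, limma unadjusted p 0.0453, adjusted p 0.883) and was -0.18 without TES 4, and all 5 probe sets had lower means after TES.

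Dnajc3 (p58IPK), which works with BiP and restrains the kinase PERK, was at 5.95, 5.88, 5.90 and 5.55 after TES and at 6.11, 5.60, 5.93 and 5.96 after sham. TES 4 and sham 2 stood apart below the rest of their groups. The difference of -0.08 (95% interval -0.36 to 0.19) was 0.01 without TES 4.

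Grouped by where the proteins work, a grouping drawn up after the values were seen, the members showed no common shift. In the endoplasmic reticulum 3 of 6 were higher and 3 lower (Hspa5, Hspa13, Dnajb9, Dnajb11, Dnajc3 and Dnajc10), from -0.16 for Dnajb9 to 0.37 for Hspa13. Of 7 mitochondrial members 2 were higher and 5 lower, or 4 and 3 under either other scaling, and the lowest was Dnajc30 with -0.18, whose human counterpart supports repair of respiratory complex I. The 4 members of vesicle traffic, Hspa8, Dnajc5, Dnajc6 and the endosomal Dnajc13, all lay between 0.01 and 0.05, and their intervals stayed within 1.2 fold. Of 7 cytosolic stress genes (Hspa1b, Hspb1, Hspb8, Hsph1, Dnaja1, Dnajb1 and Dnajb4) 5 were higher and 2 lower, with a median of 0.006.

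Single arrays were compared next. Each member's signal was set against its own mean over the 8 arrays. Sham 2 was the lowest array for 16 members (26.2%, against 18.4% of all genes) and TES 4 for 14 (23.0%, against 16.4%). TES 1 was the highest array for 12 (19.7%, against 11.1%). The median deviation of the members was -0.06 on sham 2, -0.05 on TES 4 and 0.06 on TES 1, so arrays of both groups lay on the low side. The range over the 8 arrays was 0.14 for Dnajc11, a mitochondrial J protein, and 0.18 for Dnajb4. It was 1.02 for Hspa2, an HSP70 of germ cells, 1.41 for Dnajc24, which rests on 1 probe set, and 1.59 for Dnajc22. The difference of Dnajc22, 0.41, was the most positive of all members and was -0.12 without its probe set of widest range, and its mean signal of 2.72 lay under the olfactory receptor percentile.

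**Figure D4:**
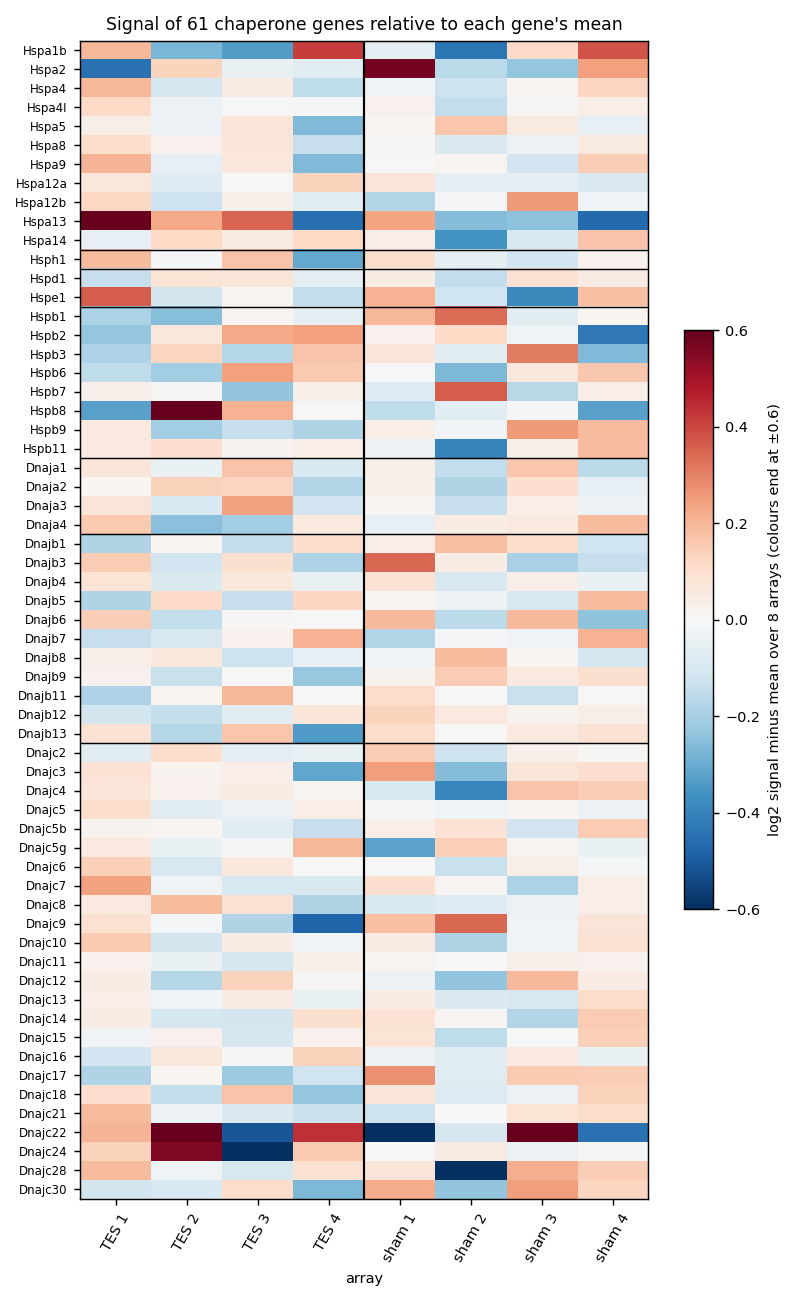
Log2 signal of each of the 61 members (rows, by family) minus its mean over the 8 arrays (columns), red above and blue below, with colours ending at 0.6. No block of rows separates the 4 TES from the 4 sham columns, and Dnajc22, Dnajc24, Hspa13, Hspa2 and Hspb8 show strong colours within a group.

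For 8 chosen pairs of chaperones that share a complex, a compartment or a promoter region, signals were correlated across the 8 arrays, and none passed an adjusted p of 0.05 in an exact two-sided permutation test of all 40320 pairings. Hspa5 and Dnajb9 had Pearson's r = 0.83 (exact permutation p 0.0114, adjusted over the 8 pairs 0.0909) and Spearman's rho = 0.50 (exact permutation p 0.216, adjusted 0.760). Without TES 4 and sham 2, the 2 arrays farthest from the median of Hspa5, r was 0.17. Leaving out these arrays narrows the range of Hspa5, so the lower r cannot show whether the relation rests on them. Dnajb1 and Hsph1 ran against each other, with r = -0.74 (exact permutation p 0.0343, adjusted 0.137) and rho = -0.83 (exact permutation p 0.0154, adjusted 0.123), and r was -0.47 without TES 1 and TES 3. Within the groups r was 0.93 (TES) and 0.59 (sham) for the former and -0.96 and -0.53 for the latter, each over 4 arrays only. Hspd1 and Hspe1, whose genes share a promoter region, had r = -0.29 (exact permutation p 0.481, adjusted 0.963). The other 5 pairs had r between -0.20 and 0.47 over the 8 arrays. Among them, Hspa5 and Tra1 had r = 0.06 over all arrays but 0.98 within TES and -0.79 within sham, and 0.60 without TES 4 and sham 2. Dnajb1 and Hspa1b had r = -0.20 over all arrays, 0.36 within TES and -0.87 within sham.

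**Figure D5:**
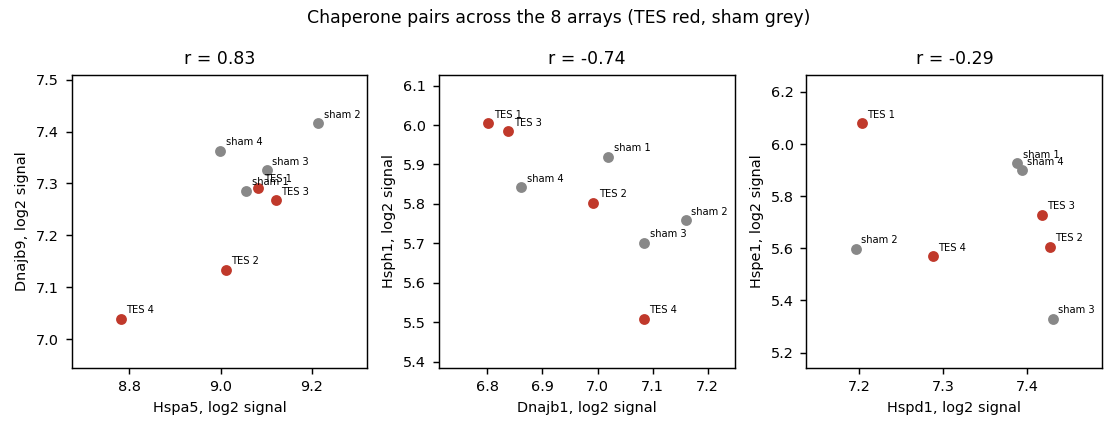
Log2 signals of 3 chaperone pairs plotted against each other, 1 point per array, TES in red and sham in grey. Hspa5 and Dnajb9 slope upward with TES 4 and sham 2 at the ends, Dnajb1 and Hsph1 slope downward, and Hspd1 and Hspe1 show no line.

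The wider chaperone network was described with 6 lists of 74 measured genes. In the TES group 20 had higher and 54 lower means, with a median difference of -0.05, so that 73.0% were lower, beside 54.9% of all genes. With median-centred arrays 32 were higher and 42 lower (56.8% lower, beside 41.9% of all genes), and after quantile normalization 31 higher and 43 lower (58.1%, beside 49.8%). None passed the adjusted threshold in limma, SAM or the unmoderated fit. In limma 2 (2.70%) had an unadjusted p under 0.05, against 5.57% of all genes. Groups did not overlap in 2 of the 74 (2.70%), against 3.31% of all genes. Bag5, a cofactor that releases nucleotide from HSP70, was at 5.87, 5.89, 5.73 and 5.88 after TES and at 6.12, 6.31, 6.11 and 5.98 after sham. All TES arrays lay below all sham arrays, and the difference was -0.29 (95% interval -0.49 to -0.09, limma adjusted p 0.823). Ppp1r15a (GADD34), which restores translation after stress, was at 5.26, 5.36, 5.43 and 5.41 after TES and at 5.63, 5.47, 5.60 and 5.56 after sham. Its groups did not overlap either, with a difference of -0.20 (95% interval -0.38 to -0.02, limma adjusted p 0.843).

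List by list, HSP70 partners were higher in 2 of 10 and HSP90 co-chaperones in 3 of 13, with 0.20 for the kinase-specific Cdc37 and -0.16 for Stip1, which links HSP70 to HSP90. With median-centred arrays 5 and 7 were higher. Heat shock factors and other inducible genes were higher in 3 of 8 (4 of 8 under either other scaling), with -0.09 for Hsf1, the master regulator, and 0.20 for Cryab, a small heat shock protein outside the rule that lens holds in large amounts. Cryab was at 8.12 on TES 3, the array of highest lens signal, and at 6.98 to 7.37 on the other arrays, and its difference of 0.20 was -0.05 without TES 3. Genes of the TRiC chaperonin, which folds actin and tubulin, and of prefoldin were higher in 5 of 11 (7 with median-centred arrays). Genes of the unfolded protein response were higher in 7 and lower in 15 of 22 (median -0.05), with differences from -0.22 to 0.18. In limma 1 of the 22 had an unadjusted p under 0.05 (4.55%, against 5.57% of all genes). Trib3 was the lowest of the list, and Ddit3 (CHOP) stood at -0.19. Without single arrays Trib3 ran from -0.38 to -0.07 and Ddit3 from -0.26 to -0.08. Mitochondrial import and proteolysis genes were higher in 0 of 10 (2 of 10 under either other scaling), with a median of -0.10 and no unadjusted p under 0.05.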

How the data were processed

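The authors deposited 1 value table of 8 arrays, with log2 signals that they made with GC-RMA in GeneSpring GX per the series text, and the submitters' processing notes also name GCRMA. How arrays were normalized to each other, and the genome build, are not given in the sources used here. The base of the logarithm was taken from the values (0.549 to 13.2). Array medians lay between 5.32 and 5.41, and correlations between arrays over all genes ran from 0.990 to 0.994. Of 213067 probe sets the array's annotation names exactly 1 gene for 172924 (81.2%), several for 1661 and none for 38482. Probe sets were averaged per gene and array, which gave 16633 genes. Current symbols and promoters came from RefSeq (GRCr8), in which 60 of the 61 members are current symbols. TES was compared with sham in limma 3.58.1 (R 4.3.3) with no covariate and no filter, and p-values were adjusted by Benjamini-Hochberg over all genes. SAM, named in the series text, added the median standard error (0.108) and pooled its p over genes and 35 splits of the arrays. The code was tested on simulated data. The number of arrays limits the precision, and scanner files were not analysed here.

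Named with all array values were Hspb1, Dnajb9, 16 further members and 3 HSP90 genes taken for their known roles (Hspa1a, also chosen, has no probe set of its own), every member with an unadjusted p under 0.05, and the 3 highest and 3 lowest differences above the olfactory receptor percentile. Members and lists were chosen with earlier results of these data known. The alternatives were other scalings, other choices of probe set, filters on low signal, other tests and thresholds, the replicate block and leaving out each array. Removing the probe set of widest range was added after the data were seen.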

Additional observations from a re-analysis of the deposited data

Results flagged for a closer look

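Single arrays stood apart from the other 3 of their group in 4 of the 78 groups of 4 arrays examined, by a gap that exceeds the 95% limit of Dixon's test. Chance gives about 1 in 20 such groups. Dnajc3 was at 5.55 on TES 4, against 5.88 to 5.95 on the other TES arrays. Bag5 was at 5.73 on TES 3, against 5.87 to 5.89. Cryab was at 8.12 on TES 3, against 7.04 to 7.18, and TES 3 also had the highest lens signal. The median log2 signal over the 61 members was 6.38 on TES 3, against 6.24 to 6.25 on the other TES arrays. That median is the signal of the gene in the middle rank and does not measure a common shift. Set against each member's own mean, the median deviation was 0.02 on TES 3 and 0.06 on TES 1.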

How the results depend on the processing

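No member and no gene passed the adjusted p under any of the 18 alternatives, and no pair of chaperones under its alternatives. Members at an unadjusted p under 0.05 numbered 4, and 1 with median-centred arrays, 2 after quantile normalization, 0 with the median probe set, 0 with the probe set of highest mean, 1 at the thresholds of the series text (which left 597 of 927 genes) and 1 to 3 without single arrays. Without the probe set of widest range 3 were left, Dnajc17, Hspb1 and Hspb9 (5.60% of all genes). Either filter on low signal left 3, Dnajc17, Dnajc9 and Hspb1 (5.30% and 5.29% of the genes kept). The replicate block, which pairs arrays by number, gave 1050 genes and 4 members at that level. Under the block Hspb1 was no longer among them (limma unadjusted p 0.0872), Hspa13, higher after TES, was (limma unadjusted p 0.0108, adjusted p 0.748), and Dnajc17, Dnajc9 and Hspb9 were in both sets. Deviations of same-numbered arrays correlated with r of 0.12, 0.13, 0.006 and -0.12. TES 1 and TES 2 correlated best with their own number, and TES 3 and TES 4 with another. As the match held for only some arrays, the numbers were not taken as pairs. Of 38 named genes, 25 kept their direction without any single array, and the other 13 had differences near 0 or, for Cryab and Dnajc24, a wide spread. Differences of opposite sign were 0.032 (Hspa4), 0.012 (Hspa9), 0.018 (Hspd1) and 0.033 (Dnajc24) with median-centred arrays, and 0.015 (Hspa4), 0.0033 (Hspd1) and 0.038 (Dnajc24) after quantile normalization. With the median probe set they were 0.070 (Hspa4), 0.039 (Hspa9), 0.022 (Hspd1), -0.049 (Dnaja1), -0.054 (Dnajb11) and 0.018 (Hspa2). With the probe set of highest mean they were 0.22 (Hspb1), -0.088 (Hspa1b), 0.12 (Hspa9), 0.0084 (Hsp90ab1), 0.017 (Hspd1), -0.012 (Dnajc5), -0.066 (Dnajc6), 0.027 (Dnajc17) and 0.045 (Stip1). Without the probe set of widest range they were -0.088 (Hspa1b), 0.016 (Hspa4), 0.020 (Hspd1), -0.0043 (Dnaja1), -0.017 (Dnajc5) and -0.12 (Dnajc22). Without single arrays the differences ran from -0.14 to 0.13 (Hspa1b), -0.072 to 0.045 (Hspa4), -0.097 to 0.061 (Hspa9), -0.088 to 0.025 (Hsp90ab1), -0.070 to 0.025 (Hspd1), -0.062 to 0.14 (Hspe1), -0.040 to 0.12 (Hsph1), -0.076 to 0.070 (Dnajb6), -0.054 to 0.075 (Dnajb11), -0.18 to 0.0096 (Dnajc3), -0.0051 to 0.051 (Dnajc5), -0.055 to 0.31 (Cryab) and -0.19 to 0.28 (Dnajc24). Correlations of opposite sign were -0.035 and -0.022 (Hspa5 with Dnajb11, median-centred arrays and median probe set), -0.17 (Hspa5 with Tra1, quantile normalization), and -0.015 and -0.55 (Hspa8 with Dnajc5, groups centred on their means and quantile normalization). The cause of these turns was not tested. Array signal over background is not known for single probes.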

Other observations

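A set of 6 probe sets that the annotation gives to both Dnajc4 and Vegfb, and that no gene mean above includes, lay between 6.79 and 9.74 over all arrays. Their differences ran from -0.17 to 0.11, beside 0.08 for the 2 probe sets of Dnajc4 alone.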
